A study of Mus musculus with 6 samples.

Results

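The genes described here encode the liver's machinery for burning fatty acids: uptake, the carnitine shuttle, beta-oxidation in mitochondria and peroxisomes, omega-oxidation, ketone body metabolism, and further genes known as targets of the nuclear receptor PPARA. They are a list of 33 genes, matched by symbol, of which 32 were measured among the 15045 genes tested. Acaa1b was not measured, because no probe set carried its symbol alone. RNA came from snap-frozen livers of 6 male mice, 6 to 8 weeks old, with 1 Affymetrix exon array per mouse. The 3 tested mice were homozygous for a mutation of Dhx32 (Dhx32-/-), a gene of the DEAH-box RNA helicase family, and the 3 controls were labelled wild type. Which part of Dhx32 the mutation alters, the background strain, the feeding state and the time of day at collection are not given in the sources used here, nor is whether mice shared a litter. The study asked which transcripts and exons differ in liver when Dhx32 is mutated.

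Fatty acids reach the liver mainly from adipose tissue, above all during fasting. Inside the cell they are bound to coenzyme A, carried into mitochondria as carnitine esters and shortened in repeated rounds of oxidation, with acetyl-CoA as the product, which the liver turns into ketone bodies for other organs. Peroxisomes shorten the longest and branched chains, and P450 enzymes of the Cyp4a family start oxidation from the far end of the chain. PPARA, which binds fatty acids and pairs with RXR on DNA, is known for switching on genes at each of these steps in fasted rodent liver.

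All values below are log2 signals, so a difference of 1 is a doubling. A gene's value is the mean over its probe sets, the groups of probes that each read 1 stretch of an exon, provided the mean of a group was 3 or more. Array medians ran from 6.73 to 6.95 over the 6 arrays. Mutant replicate 1 stood apart, with correlations of 0.935 to 0.940 with the other arrays, against 0.960 to 0.973 among the other 5. Dhx32 itself averaged 6.66 ± 0.35 in mutants and 8.58 ± 0.29 in controls (SD, n = 3 each), which is 3.78-fold lower, with no overlap between the groups. Dhx32 did not pass either (adjusted p = 0.183 in limma). Hepatocyte markers were strongly detected on every array: the mean over 7 measured markers of 10 listed was 13.02 to 13.27 in mutants and 13.07 to 13.19 in controls. Markers of neutrophils, lymphocytes, adipocytes and bile duct epithelium had list means between 4.86 and 6.47 on every array. In whole liver, fewer cells of a type and less RNA per cell cannot be told apart.

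No fatty acid oxidation gene passed the test between mutant and control livers. Mutant means were higher for 12 and lower for 20 of the 32 measured members. The median difference was -0.08 over the members and -0.01 over all genes. A higher mean was found in 37.5% of members and in 47.5% of all genes. In limma, 0 members passed after Benjamini-Hochberg adjustment over all 15045 genes (the smallest adjusted p = 0.943), where 0.00665% of all genes passed. At an unadjusted p under 0.05 there was 1 member, Hadha, which was lower in mutants. That level held 4.21% of all genes, and 2.2% of all genes reached it with a lower mutant mean. The groups failed to overlap for Hadha alone, and for no member with higher mutants. Among all genes they failed to overlap in 9.47%, and with higher mutants in 5.15%. In 25 of the 32 members (78.1%) the difference was smaller than the SD between livers of the same group, as in 70.9% of all genes. The 95% interval of the difference lay within 1 log2 unit on either side of 0 for 21 members, so for these a doubling or halving lay outside the interval, whereas for the other 11 such a change was within it.

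**Figure D1:**
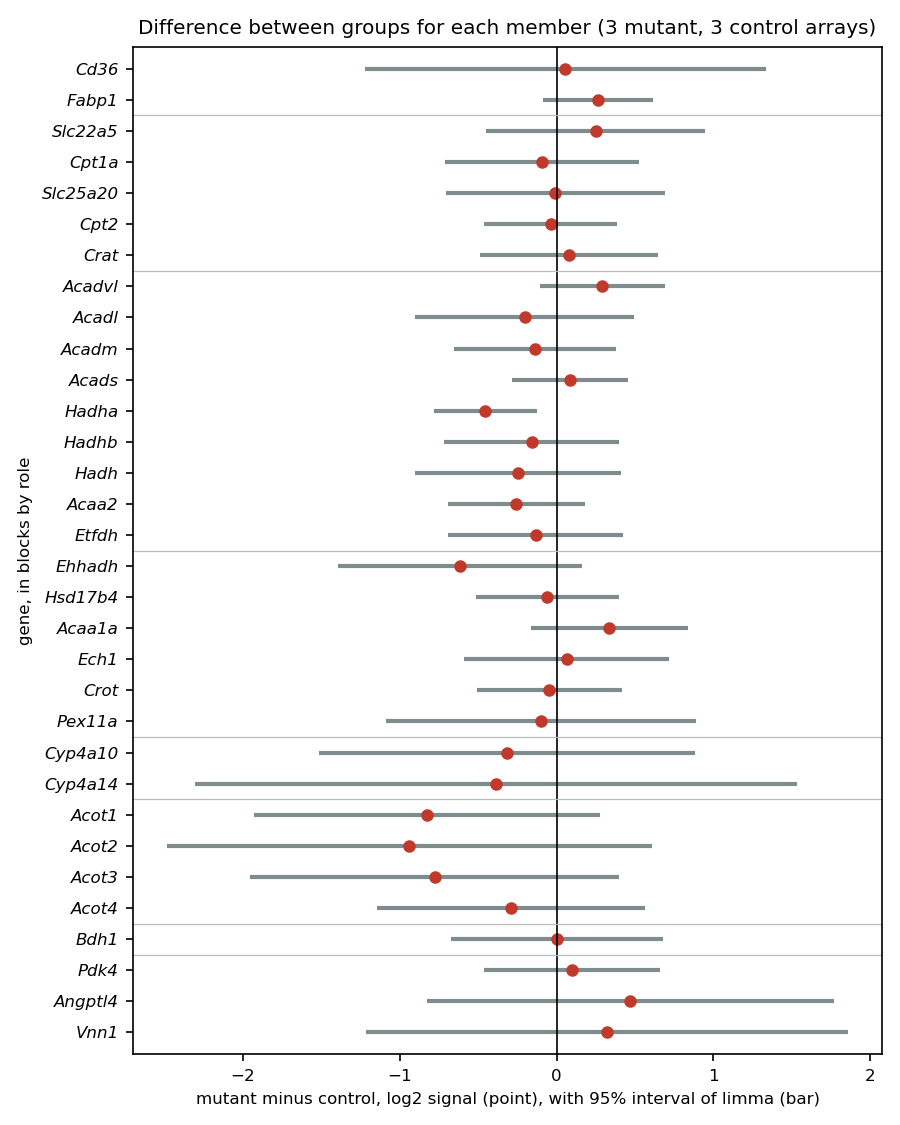
Difference between mutant and control means (log2 signal, point) with its 95% interval from limma (bar) for the 32 measured members, in blocks by role. Every interval but that of Hadha (-0.78 to -0.12) spans 0, and the intervals of Cyp4a14 (-2.31 to 1.53) and Acot2 (-2.48 to 0.61) are the widest.

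The sign of the members' shift depended on single livers. Without mutant replicate 1, 26 of the 32 members had a higher mean in mutants and the median difference was 0.14. Without mutant replicate 3, 4 had a higher mean and 28 a lower one, and the median was -0.33. Leaving out a control gave between 8 and 14 members higher. No member passed in any of these fits.

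Many members shared an order of the livers that crossed the groups. Set against the mean of the controls, the mean over the 32 members was -0.66, -0.18 and 0.49 in mutant replicates 1, 2 and 3, against -0.35, 0.11 and 0.24 in control replicates 1, 2 and 3. The lowest and the highest liver of all 6 were thus both mutants, and the controls lay between them. Mutant replicate 1 was the lowest of the 6 arrays for 20 members and mutant replicate 3 the highest for 21. Among the controls, replicate 1 was the lowest for 25 of the 32. Array medians ran in a similar order, from 6.73 in mutant replicate 1 to 6.95 in mutant replicate 3. With each array centred on its median, the order of the livers was the same, at -0.51, -0.08 and 0.39 in the mutants, against -0.28, 0.05 and 0.23 in the controls.

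**Figure D2:**
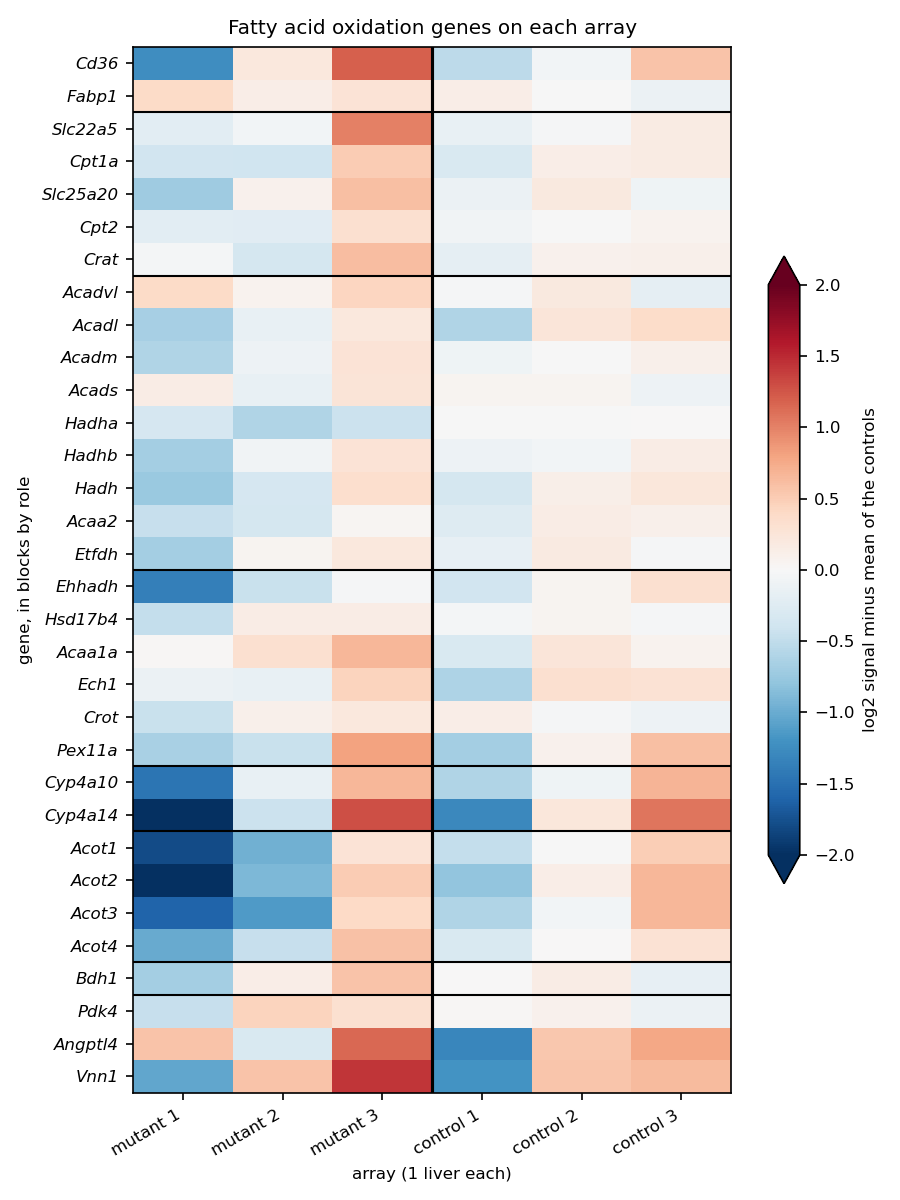
Log2 signal of each member minus the mean of its 3 controls, for 3 mutant arrays (left) and 3 control arrays (right), with genes in blocks by role; the colour scale ends at 2 on either side. Mutant replicate 1 is the lowest array in 20 of the 32 rows and mutant replicate 3 the highest in 21.

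The spread between livers of a group was wide for these genes. The SD within groups had a median of 0.44 over the members and 0.23 over all genes, and 27 of the 32 members lay above the median of all genes. Leaving out mutant replicate 1, the medians were 0.36 and 0.19. With each array centred on its median they were 0.36 and 0.23, and with quantile normalization 0.38 and 0.22. Among genes with a mean of 9 or more, a level chosen after the values were seen, the 24 members had a median SD of 0.39 and all 2132 genes one of 0.27. The range over the 6 livers exceeded 1 log2 unit for 17 members (53.1%) and for 17.9% of all genes. With mutant replicate 1 left out it did so for 12 members and for 8.11% of genes. The SD was larger among mutants than among controls in 29 of the 32 members, beside 65.9% of all genes. Without mutant replicate 1 this held for 20 of the 32 members, beside 49.6% of all genes. These comparisons of spread are descriptions and were not tested, and the values without mutant replicate 1 were added after the data were seen.

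**Figure D3:**
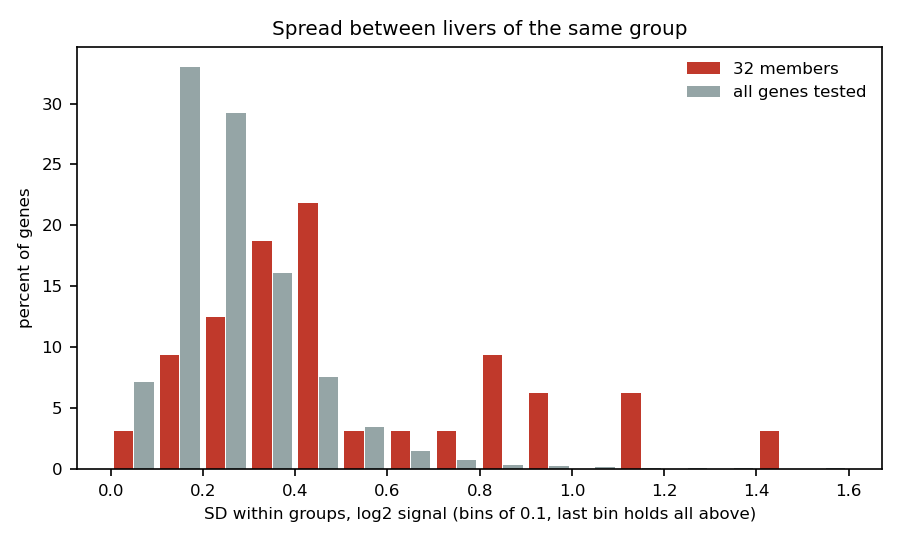
Percent of the 32 members (left bar of each pair) and of all 15045 genes (right bar) by the SD between livers of the same group, in log2 signal and bins of 0.1. The members' bars extend to the right of those of all genes, with medians of 0.44 and 0.23.

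Uptake and binding are served by Cd36, a fatty acid transporter of the plasma membrane, and Fabp1, the abundant fatty acid-binding protein of the hepatocyte cytosol. Cd36 read 7.58, 9.03 and 10.01 in the mutants, against 8.29, 8.77 and 9.39 in the controls. Mutant replicates 1 and 3 were thus the lowest and the highest of all livers, 5.38-fold apart. Cd36 is also made by macrophages and adipocytes. Over 8 macrophage markers the list mean ran from 7.72 to 8.48 in mutants and from 7.62 to 8.19 in controls, and over 8 adipocyte markers from 5.86 to 5.98 in mutants and from 5.34 to 5.68 in controls. Their part in the Cd36 values was not tested. A dim Cd36 probe set (4734011) had an unadjusted p under 0.05, at 3.78, 4.46 and 5.97 in the mutants, against 3.64, 3.12 and 3.57 in the controls, close to the signal minimum.

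Fabp1 was the steadiest member of this step and ran against the others. It read 13.15, 12.89 and 13.04 in the mutants, against 12.90, 12.75 and 12.64 in the controls. The mutants were higher except that mutant replicate 2 lay just under control replicate 1, and the difference was 0.26 (SE 0.15; adjusted p = 0.943 in limma). All 5 kept probe sets had a higher mean in mutants. Over the 6 arrays its correlation with the mean of the other members was r = -0.45 and rho = -0.43. The promoter of Fabp1 is shown because it held a direct repeat of the kind PPARA and RXR are known to bind. No other of the 26 members with a promoter window held one within it, and members without a window were not searched. The window, chr6:71199629-71199928 on the plus strand of GRCm38.p6 from RefSeq, runs from 250 bases before the annotated start to 50 after it. Capitals mark matches, on either strand, to AGGTCA and to the direct repeat, which is AGGNCA followed by any 1 base and AGGNCA again:
Fabp1: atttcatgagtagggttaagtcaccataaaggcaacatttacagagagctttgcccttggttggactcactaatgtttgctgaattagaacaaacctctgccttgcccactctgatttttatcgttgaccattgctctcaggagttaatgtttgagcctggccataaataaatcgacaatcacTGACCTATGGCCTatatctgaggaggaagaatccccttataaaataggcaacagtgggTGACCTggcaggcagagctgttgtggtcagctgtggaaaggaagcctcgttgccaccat

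The repeat, read here on the opposite strand, begins at position -67 from the start, and its first letters are also a match to AGGTCA, with another at -9. Of 32851 promoter windows of the same length in the table, 0.381% held the repeat and 16.3% held AGGTCA. Of the 26 members with a window, 1 held the repeat and 7 held AGGTCA (Acadm, Cd36, Fabp1, Acadvl, Acot3, Acot4 and Cpt1a), which counted by gene is beside 18.1% of all genes. A match of letters is a description and not a site in use.

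The carnitine shuttle carries acyl groups into mitochondria. Slc22a5, which takes carnitine into the cell, had the largest difference of its 5 genes, 0.25 (SE 0.30), with 8.21, 8.37 and 9.42 in the mutants, against 8.27, 8.40 and 8.59 in the controls. Mutant replicate 3 alone stood above the controls, the other mutants lay below or among them, and without replicate 3 the difference was -0.13. Cpt1a makes the acylcarnitine at the outer membrane and is known as the controlling step. It read 10.85, 10.83 and 11.74 in the mutants, against 10.93, 11.37 and 11.40 in the controls, a difference of -0.09 (SE 0.27). The carrier of the inner membrane, Slc25a20, differed by -0.01 (SE 0.30), Cpt2, which restores acyl-CoA inside, by -0.04 (SE 0.18), and the acetyltransferase Crat by 0.08 (SE 0.25). For all 5 genes mutant replicate 3 was the highest liver and control replicate 1 the lowest control.

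Beta-oxidation in mitochondria begins with acyl-CoA dehydrogenases sorted by chain length. Acadvl, for very long chains, read 10.94, 10.62 and 10.98 in the mutants, against 10.53, 10.75 and 10.38 in the controls, a difference of 0.29 (SE 0.17; adjusted p = 0.943 in limma). The groups overlapped, although 18 of its 19 probe sets had a higher mean in mutants. Acadl, for long chains, differed by -0.20 (SE 0.30), Acadm, for medium chains, by -0.14 (SE 0.23), and Acads, for short chains, by 0.09 (SE 0.16). Acadl and Acadm followed the order of the livers seen over the whole list (r = 0.91 and 0.93 with the mean of the other members, n = 6). Acadvl and Acads did not (r = -0.06 and 0.09). Etfdh, which hands the electrons of these enzymes to ubiquinone, differed by -0.13 (SE 0.24).

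The later steps of each round are carried out for long chains by the trifunctional protein, whose alpha and beta subunits are encoded by Hadha and Hadhb. Hadha read 10.92, 10.65 and 10.83 in the mutants, against 11.25, 11.25 and 11.26 in the controls. All 3 mutants lay below all 3 controls, and the controls were nearly equal. The means were 10.80 ± 0.14 in mutants and 11.25 ± 0.01 in controls (SD, n = 3 each), a difference of -0.45 (SE 0.14), or 1.37-fold lower. Hadha did not pass (unadjusted p = 0.0133, adjusted p = 0.943 in limma), and an exact two-sided permutation test gives 0.1, the smallest p that 3 against 3 allows. Groups without overlap and with lower mutants occurred in 4.32% of all genes, so 1 of 32 members is near the background. All 23 probe sets of Hadha had a lower mean in mutants, by 0.14 to 0.89, and in 13 the groups did not overlap, beside 4.42% of all probe sets with lower mutants and 8.41% in either direction. These probe sets read the same 6 RNAs and are not separate comparisons. With any 1 array left out the Hadha difference stayed between -0.51 and -0.38, with adjusted p-values of 0.552 to 1 in limma.

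Hadhb did not share this pattern. It read 10.89, 11.50 and 11.85 in the mutants, against 11.47, 11.52 and 11.71 in the controls, a difference of -0.16 (SE 0.24). Mutant replicate 3 was the highest liver and mutant replicate 1 the lowest. Its values followed the other members (r = 0.92, n = 6), whereas those of Hadha did not (r = 0.05). Whether the differences of Hadha and Hadhb are unequal was not tested. The pair is shown because both genes start from the same stretch of DNA: the annotated starts lie head to head, 273 bases apart, and 228 bases of the windows below are the same DNA read on opposite strands. Neither window held AGGTCA or the direct repeat, so no letter is in capitals. The windows are chr5:30154931-30155230 on the minus strand for Hadha and chr5:30155003-30155302 on the plus strand for Hadhb, both of GRCm38.p6 from RefSeq:
Hadha: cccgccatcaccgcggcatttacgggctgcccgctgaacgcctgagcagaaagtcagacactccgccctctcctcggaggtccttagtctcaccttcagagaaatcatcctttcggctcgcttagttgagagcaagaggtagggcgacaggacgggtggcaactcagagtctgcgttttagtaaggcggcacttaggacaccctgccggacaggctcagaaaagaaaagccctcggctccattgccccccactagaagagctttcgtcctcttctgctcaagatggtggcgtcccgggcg
Hadhb: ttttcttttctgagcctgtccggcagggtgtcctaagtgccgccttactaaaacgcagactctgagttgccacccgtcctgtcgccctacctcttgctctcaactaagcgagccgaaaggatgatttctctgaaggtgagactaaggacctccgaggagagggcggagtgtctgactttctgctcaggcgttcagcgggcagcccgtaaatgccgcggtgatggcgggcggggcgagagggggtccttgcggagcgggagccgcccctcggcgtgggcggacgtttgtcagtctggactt

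**Figure D4:**
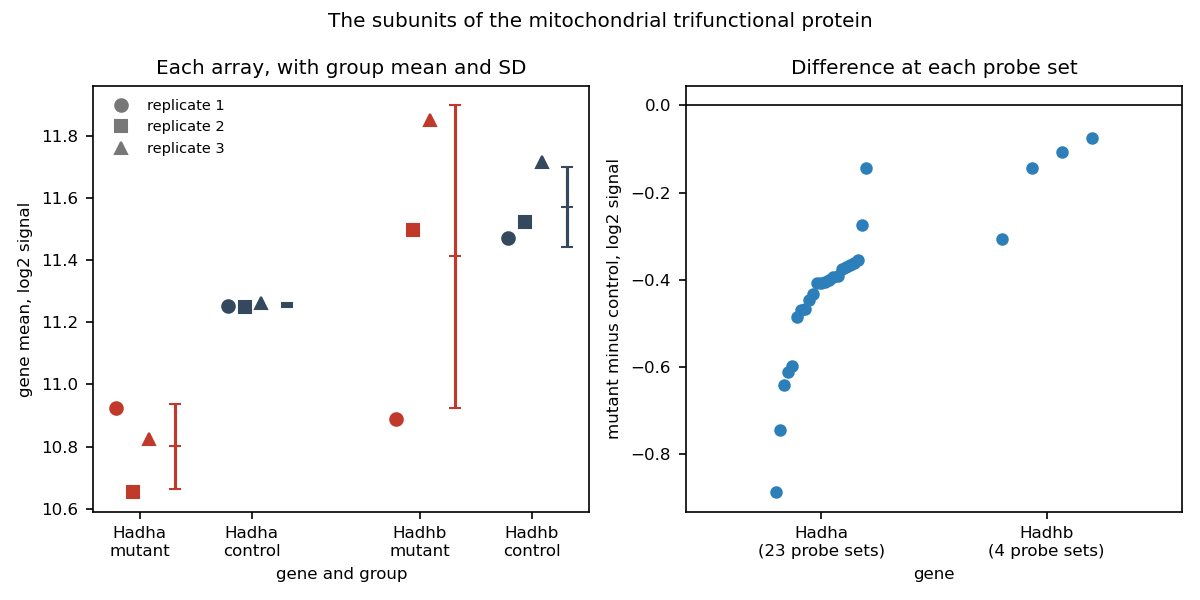
Left, log2 signal of Hadha and Hadhb on each array by group (symbols mark the replicate), with group mean and SD (n = 3 each) at the right of each set of points; right, mutant minus control difference at each probe set. The 3 Hadha mutants lie below the 3 controls and all 23 of its probe sets are below 0, while Hadhb mutants spread on both sides of the controls.

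Hadh and Acaa2 complete the shorter chains. Hadh, the hydroxyacyl-CoA dehydrogenase for short chains, differed by -0.25 (SE 0.29) and Acaa2, the mitochondrial thiolase, by -0.26 (SE 0.19). All 11 probe sets of Acaa2 had a lower mean in mutants, yet mutant replicate 3 (12.37) lay within the controls (12.09 to 12.48).

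Among the peroxisomal genes, Ehhadh had the largest difference. It encodes the bifunctional enzyme of inducible peroxisomal oxidation and read 10.05, 10.98 and 11.40 in the mutants, against 11.05, 11.49 and 11.74 in the controls. Mutant replicates 1 and 2 lay below every control and replicate 3 lay among them. The difference of -0.62 (SE 0.34; adjusted p = 0.943 in limma) was -0.24 without mutant replicate 1, and all 9 probe sets had a lower mean in mutants. Hsd17b4, the other bifunctional enzyme, which serves branched chains and bile acid precursors, differed by -0.06 (SE 0.20). Ech1, an isomerase for unsaturated chains, differed by 0.06 (SE 0.29), Crot, which exports shortened chains as carnitine esters, by -0.05 (SE 0.20), and Pex11a, a peroxisome division factor, by -0.10 (SE 0.43). Acaa1a, a peroxisomal thiolase, differed by 0.34 (SE 0.22), but rests on 2 probe sets. One of them (5137280) averaged 3.28 in mutants and 3.12 in controls, near the signal minimum, and Acaa1b is a near copy of the gene, so its value is uncertain.

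The omega-hydroxylases Cyp4a10 and Cyp4a14 are classical PPARA targets of rodent liver. Of the 32 members Cyp4a14 had the largest SD within groups (1.45) and the widest range over the 6 livers. It read 8.42, 10.02 and 11.73 in the mutants, against 9.15, 10.67 and 11.51 in the controls. The mutants covered a 9.95-fold range and the controls a 5.13-fold range, and the difference of -0.39 (SE 0.84) was well within that spread. Without mutant replicate 1 it was 0.43, and without mutant replicate 3 it was -1.23. Cyp4a10 had the same lowest liver, mutant replicate 1 (11.17), with 12.48 and 13.29 in the other mutants, against 12.02 to 13.31 in the controls. Members of this family are alike in sequence, and reads of 1 by probes for another were not tested.

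The acyl-CoA thioesterases, which release free fatty acids from coenzyme A, had the most negative median difference of any step (-0.80). Acot1 acts in the cytosol, Acot2 in mitochondria, and Acot3 and Acot4 in peroxisomes, and the 4 genes lie near each other on chromosome 12. Acot2 read 6.83, 8.34 and 9.75 in the mutants, against 8.46, 9.37 and 9.90 in the controls, the largest difference of any member at -0.94 (SE 0.67). Acot1 differed by -0.83 (SE 0.48), Acot3 by -0.78 (SE 0.51) and Acot4 by -0.29 (SE 0.37), all with an adjusted p of 0.943 or more in limma. Mutant replicate 1 was the lowest liver for all 4 genes and mutant replicate 2 the next, while mutant replicate 3 lay among the controls or, for Acot4, above them. Without mutant replicate 1 the differences were -0.34 for Acot1, -0.20 for Acot2, -0.11 for Acot3 and 0.07 for Acot4. All 18 kept probe sets of the 4 genes had a lower mean in mutants. The genes are close relatives, and Acot1 and Acot2 are near copies, so their values are not independent. The Acot4 promoter is shown as the one of this cluster with AGGTCA just before the start, at position -13 (chr12:84038129-84038428, plus strand, GRCm38.p6, RefSeq; capitals mark the match):
Acot4: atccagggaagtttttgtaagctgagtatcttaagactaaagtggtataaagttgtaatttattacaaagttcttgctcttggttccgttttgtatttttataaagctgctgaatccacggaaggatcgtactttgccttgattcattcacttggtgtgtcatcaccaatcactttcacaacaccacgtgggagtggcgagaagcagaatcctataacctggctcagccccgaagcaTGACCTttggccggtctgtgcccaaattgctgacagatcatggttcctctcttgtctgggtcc

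Ketone bodies are represented by Bdh1, which interconverts acetoacetate and hydroxybutyrate. It read 9.72, 10.54 and 10.97 in the mutants, against 10.42, 10.55 and 10.25 in the controls. The mutants lay on both sides of the controls, and the difference was 0.00 (SE 0.30), with a 95% interval of -0.67 to 0.68.

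The remaining members are PPARA targets with regulatory or secreted products. Angptl4, a secreted inhibitor of lipoprotein lipase, read 10.07, 9.18 and 10.65 in the mutants, against 8.18, 10.03 and 10.27 in the controls. Control replicate 1 was far below the other livers, and without it the difference of 0.47 (SE 0.56) was -0.18. Vnn1, a pantetheinase of the coenzyme A recycling route, differed by 0.32 (SE 0.67), with control replicate 1 (8.07) and mutant replicate 1 (8.23) both far below the other livers (9.83 to 10.70). Without control replicate 1 the difference of Vnn1 was -0.28. Pdk4, which restrains glucose oxidation by inhibiting pyruvate dehydrogenase, differed by 0.10 (SE 0.24) and ranged over 1.89-fold in the 6 livers.

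Across the 6 arrays, 11 of the 32 members had r above 0.9 with the mean of the other members, led by Cyp4a14, Hadh and Acot4 (r = 0.98, 0.98 and 0.97; rho = 1, 1 and 0.94). These 11 are 34.4% of the members, whereas 5.74% of 9468 other genes with a mean of 6 or more had r above 0.9 with the members' mean. Without mutant replicate 1 the count was again 11, beside 7.12% of the other genes. The members with r under 0.2 were Fabp1, Acadvl, Hadha and Acads. With the 2 arrays farthest from the median of the x axis left out, r remained 0.98 for Cyp4a14, 0.97 for Hadh and 0.89 for Acot4, but it was -0.13 for Hsd17b4, -0.41 for Bdh1, -0.47 for Pdk4 and -0.98 for Crot, whose relations rested on those arrays. The other genes most like the members' mean were Suclg2, Adap2, Prune1, Cyp2d34 and Faf2, with r of 0.990 to 0.996 over 6 arrays. Their differences between mutants and controls were -0.16 to -0.06. All these correlations describe the same 6 livers, which also share array scale and amplification.

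Other lists shared part of the members' order over the livers. In the clock and feeding lists mutant replicate 1 was also the lowest, but mutant replicate 3 lay below control replicates 2 and 3. The clock list (14 genes) stood at -0.72, -0.50 and 0.02 from the mean of the controls in mutant replicates 1, 2 and 3, against -0.33, 0.15 and 0.18 in the controls. Genes of the clock list did not all run together, and mutant replicate 1 was the lowest array for 9 of the 14. Nr1d1 read 7.30, 8.14 and 10.50 in the mutants, whereas Arntl read 8.00, 8.44 and 7.34. Arntl, Npas2 and Cry1 were lowest in mutant replicate 3. Genes induced by feeding (11 genes) stood at -0.71, -0.33 and 0.00 in the mutants, against -0.33, 0.17 and 0.16 in the controls. Fasting genes outside fatty acid oxidation (10 genes) stood at 0.09, 0.08 and 0.21 in the mutants, against -0.20, -0.0047 and 0.20 in the controls. They followed the members' order among the controls, and mutant replicate 3 was the highest by a small margin. Control replicate 1, and not mutant replicate 1, was the lowest. Acute phase genes (15 genes) ran opposite to the members among the mutants, at 1.94, 0.73 and 0.40, against 0.13, -0.12 and -0.01 in the controls. Hepatocyte markers (7 genes) covered a narrower range, at -0.13, -0.11 and 0.12 in the mutants, against -0.08, 0.04 and 0.03 in the controls. As for the members, mutant replicate 1 was the lowest liver and mutant replicate 3 the highest. Markers of other liver cells differed between the same livers. Stellate cell markers (7 genes) stood at -0.70, -0.31 and -0.11 in the mutants, against -0.14, 0.15 and -0.01 in the controls. Of the 7, 5 were lower in mutants and 2 were at an unadjusted p under 0.05, beside 4.21% of all genes. This list was uneven. Lrat, Reln and Dcn differed by -0.85, -0.93 and -0.81, Col3a1 by -0.17 and Ngfr by -0.0016. Des (0.13) and Col1a1 (0.04) were higher in mutants. Mutant replicate 1 was the highest liver for markers of neutrophils (0.91 over 7 genes), bile duct epithelium (0.52 over 6 genes) and macrophages (0.49 over 8 genes). These lists were uneven in that liver. Among bile duct markers Spp1 stood out (10.09, control mean 7.62), while Epcam and Cftr lay below their control means. Among macrophage markers Cd5l (10.73, control mean 9.25) and Marco (7.38, control mean 5.99) stood out. Clec4f, Cd68 and Timd4 were also above their control means, while Adgre1, Csf1r and Vsig4 lay just below theirs. Sinusoidal endothelial markers (7 genes) stood at 0.04, -0.57 and 0.26 in the mutants, against -0.28, 0.08 and 0.21 in the controls. The part of the clock, feeding, acute phase and cell marker values in the members' order was not tested.

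**Figure D5:**
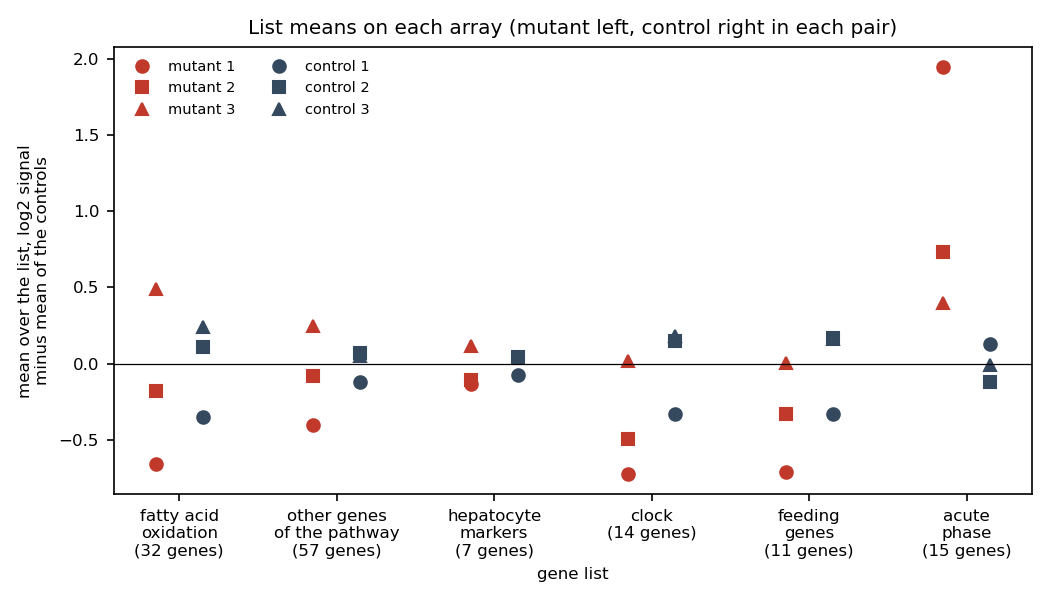
Mean over each gene list on each array, as log2 signal minus the mean of the controls, with mutants at the left and controls at the right of each pair and symbols for the replicate. Mutant replicate 1 is lowest for every list shown but the acute phase list, where it is highest (1.94). It is at -0.66, -0.72 and -0.71 for the fatty acid oxidation, clock and feeding lists.

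The rest of the pathway was measured alongside. Of 67 other genes of fatty acid handling, 57 were measured. The mutant mean was higher for 25 and lower for 32, and the median difference was -0.03. Their list mean stood at -0.40, -0.08 and 0.25 from the mean of the controls in mutant replicates 1, 2 and 3. The controls stood at -0.12, 0.07 and 0.05, so the lowest and the highest liver were the same as for the members. After adjustment in limma 0 passed, and 3 were at an unadjusted p under 0.05, beside 4.21% of all genes. Groups did not overlap for 2 with lower mutants (Cpt1b and Nudt19) and 2 with higher mutants (Eci1 and Plin2), beside 4.32% and 5.15% of all genes in those directions, so both counts are near the background. Ppara, the receptor itself, read 9.54, 9.95 and 10.80 in the mutants, against 10.25, 10.83 and 10.83 in the controls. Mutant replicates 1 and 2 lay below all controls, and the difference was -0.54 (SE 0.32; adjusted p = 0.943). The coactivators Ppargc1b and Ppargc1a, which drive mitochondrial programmes, differed by -0.73 (SE 0.24) and -1.10 (SE 0.48). Nudt19, a hydrolase of coenzyme A, differed by -0.94 (SE 0.33), with 7.60, 8.76 and 8.82 in the mutants, against 9.04, 9.34 and 9.62 in the controls, without overlap. Slc27a1, a fatty acid transport protein, differed by -0.32 (SE 0.17).

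Of the other genes with a higher mean, the hormone gene Fgf21, a PPARA target induced by fasting, differed by 0.53 (SE 0.22), with 6.45, 6.14 and 6.89 in the mutants, against 5.96, 6.19 and 5.75 in the controls. Mutant replicate 2 lay within the controls. The lipid droplet coat gene Plin2 differed by 0.45 (SE 0.21), with 11.19, 11.08 and 11.78 in the mutants, all above the controls at 10.98, 10.96 and 10.77. Cyp4a12b, a male-biased omega-hydroxylase, differed by 0.75 (SE 0.37) and Cidec, a lipid droplet protein, by 0.53 (SE 0.27). The adjusted p was 0.943 in limma for each gene named in this paragraph and the one before it.

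Exon usage was compared next. In the F-test of diffSplice, which asks whether probe sets of a gene differ unequally between groups, 0 of the 31 members with 3 or more probe sets passed, and none reached an unadjusted p under 0.05, where 0.210% of the 14310 genes tested passed. Crot had the smallest p of the members (unadjusted p = 0.793, adjusted p = 1). Of the members' 338 kept probe sets, 193 had a lower and 145 a higher mean in mutants, 0 passed after adjustment over 174710 probe sets in limma, and 5 were at an unadjusted p under 0.05, beside 4.01% of all. Of these 5, 4 belonged to Hadha and 1 to Cd36.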

How the data were processed

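The deposited values are log2 signals per probe set, normalized by the authors; per the submitters' processing notes, the tools were Affymetrix Expression Console 1.1, RMA and Partek 6.4 and the build mm9, with no roles given. RMA is meant to equalise arrays, although array medians still ran from 6.73 to 6.95. It is known to compress dim signals, so small or dim differences may be understated. Compression was not tested here.

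Of 204531 probe sets, 185264 carried a single symbol in the platform annotation, updated through RefSeq names. Probe sets with a group mean of 3 or more were kept, and genes with at least 2 were averaged. Groups were compared in limma 3.58.1 (R 4.3.3; lmFit, eBayes, Benjamini-Hochberg over all genes, threshold 0.05), and exon usage with diffSplice. The steps were tested on simulated data. The number of arrays, 3 per group, limits precision. The labels do not say that mice were independent litters. The p-values set group differences against the spread between these mice, as if the mice were independent.

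All members were named, with every array's value for those at an unadjusted p under 0.05 and for the largest difference of each role; per-array values of other genes were added after values were seen. Of the other pathway genes, Ppara, Fgf21 and the 4 of smallest p in each direction were named, and the 5 genes most like the members' mean by r. Members, lists and rules were chosen with earlier results of these data known. Promoters came from RefSeq (GRCm38.p6).

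Alternatives were no signal minimum or one of 5, quantile normalization, median centring, medians over probe sets, moderation with a trend and robust, array weights, a replicate block and leaving out each array.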

Additional observations from a re-analysis of the deposited data

How the results depend on the processing

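No member passed under any alternative, and 9 members kept their direction in all 14 (Fabp1, Acadvl, Hadha, Acaa2, Ehhadh, Acaa1a, Acot1, Acot2 and Acot3). The number of genes past the threshold was 0 with no signal minimum and with the replicate block, and 2 with quantile normalization, with median centring and with array weights. Members at an unadjusted p under 0.05 numbered 0 with medians over probe sets, 3 with array weights (Hadha, Acot1 and Acot3), where 8.09% of all genes were at that level, and 5 with the replicate block (Hadha, Ehhadh, Acot1, Acot2 and Acot3), where 5.94% were. Taken as deviations from the group mean over all genes, same-numbered mice had correlations of 0.10, -0.11 and 0.18. With 3 arrays per group these values cannot decide whether the numbers pair the mice. Signs of small differences turned as follows. With a minimum of 5, Cd36 was at -0.0085 and Crot at 0.023. Slc25a20 was at 0.021 with quantile normalization, and with median centring Slc25a20 was at 0.042, Cpt2 at 0.012 and Crot at 0.0034. With medians over probe sets, Slc25a20 was at 0.014, Crot at 0.0017 and Bdh1 at -0.16. With array weights, Slc25a20 was at 0.070, Crat at -0.11, Hsd17b4 at 0.050, Ech1 at -0.13, Crot at 0.073 and Angptl4 at -0.12. The cause was not tested. With 1 array left out, the number of genes past the threshold ran from 0 to 3 and the members at an unadjusted p under 0.05 from 1 to 6, with 6 without mutant replicate 3 (Hadha, Ehhadh and Acot1 to Acot4), where 9.001% of all genes were at that level. Members higher in mutants ran from 4 to 26 with a median difference of -0.33 to 0.14, and other pathway genes from 16 to 35 with -0.19 to 0.10, each lowest without mutant replicate 3 and highest without mutant replicate 1. Among members whose sign turned in these fits, the differences ranged as follows: Cd36 -0.51 to 0.70, Slc22a5 -0.13 to 0.48, Cpt1a -0.39 to 0.059, Slc25a20 -0.31 to 0.34, Cpt2 -0.22 to 0.054, Crat -0.19 to 0.29, Acadl -0.50 to 0.027, Acadm -0.35 to 0.091, Acads -0.00021 to 0.20, Hadhb -0.38 to 0.10, Hadh -0.54 to 0.0024, Etfdh -0.31 to 0.14, Hsd17b4 -0.16 to 0.15, Ech1 -0.24 to 0.23, Crot -0.18 to 0.16, Pex11a -0.55 to 0.20, Cyp4a10 -0.80 to 0.26, Cyp4a14 -1.23 to 0.43, Acot4 -0.73 to 0.066, Bdh1 -0.28 to 0.35, Pdk4 -0.071 to 0.39, Angptl4 -0.18 to 0.86, Vnn1 -0.28 to 1.0. Array number and mutant replicate 1 limit all comparisons, and dim probe sets, as of Acaa1a, may be compressed toward background.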
